A study of Mus musculus with 9 samples.

Results

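The antiviral interferon-stimulated genes Ifit1, Ifit3, Isg15, Usp18, Rsad2, Oasl2, Gbp2, Gbp3, Ifi35 and Bst2 were followed in MC38 cells, a mouse colon carcinoma line. They were taken from the deposited expression table by gene symbol, and all 10 were found among its 16509 genes. RNA enriched on oligo(dT) beads was sequenced in 9 libraries, 3 each from Ctrl cells, cells treated with Cu-Cys and cells treated with Cadict. Cu-Cys is a self-assembled material of copper ions and cystine. Cadict is a nanoparticle that combines copper and cystine with glucose oxidase, which consumes glucose, and carries a GE11 peptide that binds the EGF receptor. The labels give the Ctrl cells DMSO, whereas the study's text names PBS, and neither source states a dose or a time of treatment for these libraries. All groups are the same single line, and the study states that in vitro experiments were repeated independently, while the labels do not say whether the 3 libraries of a group came from separate cultures.

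Interferons bind receptors at the cell surface, whose kinases JAK1 and TYK2 pass the signal on to transcription factors. Among these is the complex ISGF3, which contains STAT2 and IRF9 and binds interferon-stimulated response elements in the promoters of antiviral genes. Tumor cells in culture often keep a low level of these transcripts without added interferon, and the proteins they encode act at different steps of a viral infection.

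The libraries held 17905771 to 18293056 expected counts (read counts estimated per gene), and the 10 members together took 1158 to 1281 of them in Ctrl cells, 908 to 1103 in Cu-Cys-treated cells and 815 to 1066 in Cadict-treated cells. Levels are given as counts and as CPM, counts brought to a common library total and scaled by TMM, a method that sets the bulk of genes equal between libraries. The TMM factors were 1.262 to 1.274 in Ctrl, 1.206 to 1.209 in Cu-Cys and 0.6395 to 0.6654 in Cadict libraries, so that 3 counts were worth 0.1298 to 0.1308 CPM in Ctrl cells but 0.2519 to 0.2615 CPM in Cadict-treated cells. The 100 most abundant genes took 29.79 to 31.13% of the counts in Cadict libraries, against 17.19 to 17.39% in Ctrl libraries. A change with Cadict is hence a change against the typical gene: the median log2 fold change of all genes tested was -0.125 with TMM and -1.08 when libraries were scaled by their totals. Of 8 epithelial markers listed, 6 were in the table. Epcam, Krt18, Krt8 and Vil1 were near 0 in every library, with at most 4, 2, 17 and 5 counts. Cdh1 lay at 0.87 to 2.06 FPKM and Krt19 at 1.04 to 6.89 FPKM, while the collagen gene Col1a2 lay at 15.35 to 151.95 FPKM. The summed FPKM of the 6 epithelial markers was between 2.52 and 3.65 in Ctrl, 2.22 and 2.49 in Cu-Cys and 9.15 and 9.75 in Cadict libraries. That of 7 fibroblast and endothelial markers, most of it Col1a2, was between 176 and 186, 97.6 and 99, and 23.1 and 25.8. The endothelial markers among them, Pecam1, Cdh5 and Kdr, reached at most 0.56, 0.21 and 0.15 FPKM. Of 8 leukocyte markers listed, 5 were in the table. Their summed FPKM, nearly all of it Cd68, was between 4.13 and 4.37, 2.89 and 3.55, and 11 and 12.9. The pan-leukocyte marker Ptprc had at most 4 counts, and the part of these shifts in the results was not tested.

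Bst2 was by far the most abundant member and Rsad2 the least. Bst2 encodes tetherin, which holds budding virions at the cell surface. Per transcript length, the mean level in Ctrl cells was 139 TPM for Bst2, 20.2 TPM for Ifi35, 6.33 TPM for Isg15, 4.78 TPM for Gbp2, 3.03 TPM for Oasl2 and 1.56 TPM for Ifit3. Gbp3 with 0.577 TPM and Usp18 with 0.56 TPM followed, and these neighbours overlapped between libraries, before Ifit1 with 0.227 TPM and Rsad2 with 0.03 TPM. Each of the other neighbours in this order was separated in all 3 Ctrl libraries. In Cadict-treated cells Bst2, Ifi35 and Isg15 kept the first places with 106, 12.9 and 1.47 TPM, and Oasl2, at 0.117 TPM, overlapped both Gbp3 and Usp18.

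Ifit1, Rsad2 and Usp18 were near 0 counts and did not enter the test across genes. Ifit1 encodes an RNA-binding protein that blocks translation of viral RNA. It had 6, 7 and 4 counts in the Ctrl libraries, 0, 0 and 1 in the Cu-Cys libraries and 0 in each Cadict library. All Ctrl libraries lay above all treated libraries, and over the group Ifit1 was at least 2.88-fold lower in Cadict-treated than in Ctrl cells, taking 3 counts over the group as the limit that 0 allows. Without the filter on low counts the adjusted p of Ifit1 was 0.0049 for Cadict against Ctrl and 0.00942 for Cu-Cys against Ctrl by edgeR's quasi-likelihood test. Usp18, the protease that removes ISG15 from proteins and damps receptor signaling, had 11, 10 and 5 counts in Ctrl, 2, 7 and 2 in Cu-Cys and 0, 3 and 2 in Cadict libraries. The Ctrl and Cadict counts of Usp18 did not overlap, although after scaling they did, with 0.218 CPM in Ctrl replicate 3 and 0.2615 CPM in Cadict replicate 2. Ctrl and Cu-Cys overlapped on either scale, and without the filter its adjusted p by edgeR was 0.0966 and 0.179 against Ctrl. Rsad2, which encodes viperin, an enzyme that makes a chain-terminating nucleotide, had 1 count in each Ctrl library, none in the Cu-Cys libraries and 0, 1 and 0 in the Cadict libraries, so no difference was detectable at this depth.

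**Figure D1:**
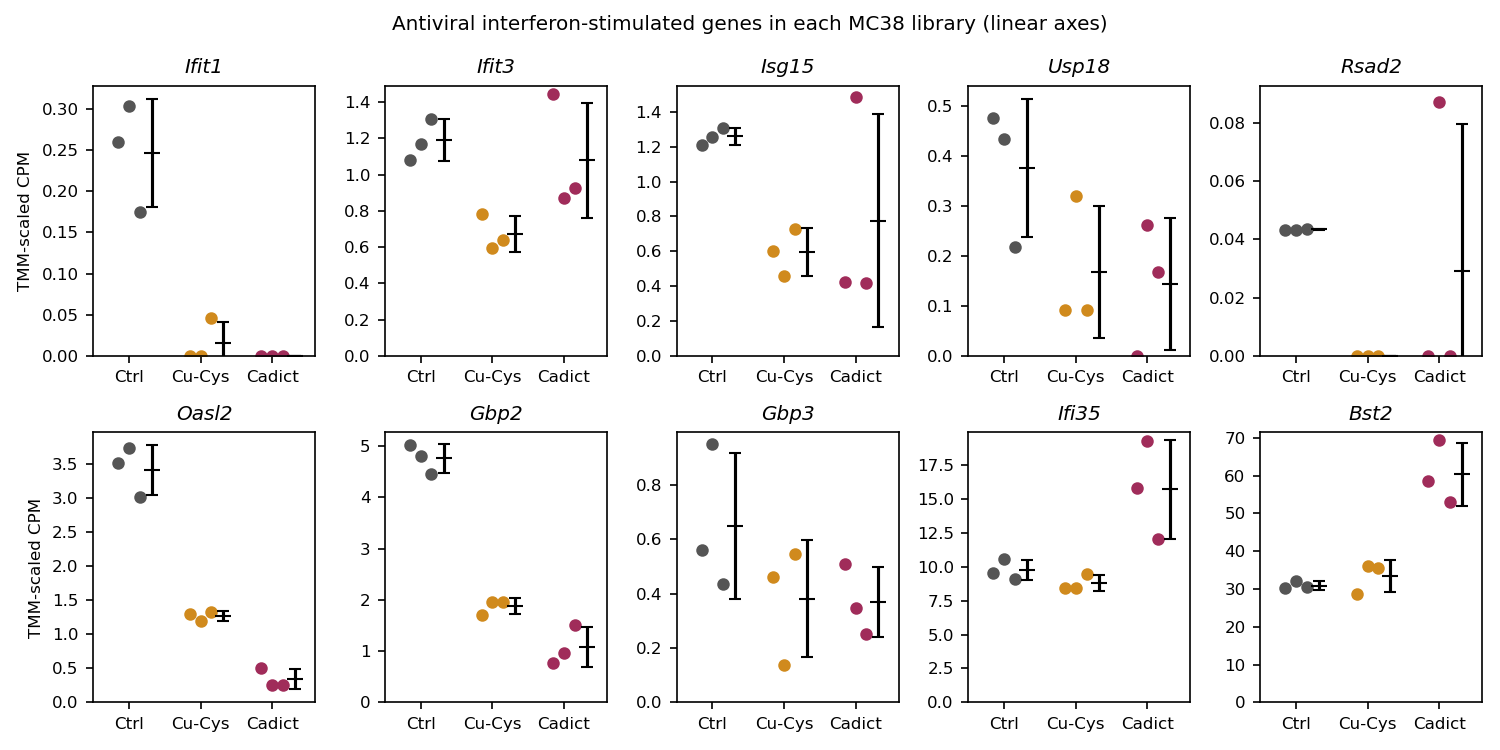
Levels of the 10 members as TMM-scaled CPM in each library on linear axes that start at 0, with the mean and SD of the 3 libraries of a group beside the points. Oasl2 and Gbp2 step down from Ctrl to Cu-Cys to Cadict, Bst2 and Ifi35 are highest in Cadict libraries, and Ifit1, Rsad2 and Usp18 stay below 0.5 CPM.

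Promoter sequence is shown for 6 members to set the presence of interferon response elements beside the direction of each gene. The 250 bases before the annotated start were taken from RefSeq on GRCm38.p6, which is not the GRCm39 build named in the processing notes, and 9 members had an entry. Capitals mark matches on either strand to the core of the interferon-stimulated response element (ISRE), GAAA, any 2 bases and GAAA again, which reads TTTC, any 2 bases and TTTC on the other strand. The core of the gamma-activated site (GAS), TTC, any 3 bases and GAA, was searched as well and is not set in capitals. Isg15, Ifit1 and Gbp2 hold an ISRE core, as does Bst2, and Oasl2 and Ifi35 hold neither core in this window.
Isg15, chr4:156200819-156201068, minus strand: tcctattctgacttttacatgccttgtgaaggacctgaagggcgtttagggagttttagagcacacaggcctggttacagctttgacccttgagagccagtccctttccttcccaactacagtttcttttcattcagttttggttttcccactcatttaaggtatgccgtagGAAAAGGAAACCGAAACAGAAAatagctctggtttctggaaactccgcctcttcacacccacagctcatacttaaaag
Ifit1, chr19:34640639-34640888, plus strand: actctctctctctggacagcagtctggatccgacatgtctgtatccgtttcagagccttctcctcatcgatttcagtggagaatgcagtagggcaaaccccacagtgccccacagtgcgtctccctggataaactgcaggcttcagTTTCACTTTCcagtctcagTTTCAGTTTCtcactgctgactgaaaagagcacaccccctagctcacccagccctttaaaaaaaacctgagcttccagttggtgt
Gbp2, chr3:142620413-142620662, plus strand: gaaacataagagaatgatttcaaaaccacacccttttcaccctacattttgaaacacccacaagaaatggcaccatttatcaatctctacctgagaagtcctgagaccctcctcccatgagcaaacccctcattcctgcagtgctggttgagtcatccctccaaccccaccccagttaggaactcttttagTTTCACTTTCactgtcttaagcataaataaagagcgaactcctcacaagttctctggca
Bst2, chr8:71537473-71537722, minus strand: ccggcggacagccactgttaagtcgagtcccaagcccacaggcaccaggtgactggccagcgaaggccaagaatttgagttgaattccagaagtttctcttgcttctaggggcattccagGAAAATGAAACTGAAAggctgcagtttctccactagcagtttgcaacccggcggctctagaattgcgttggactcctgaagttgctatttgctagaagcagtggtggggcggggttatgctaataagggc
Oasl2, chr5:114896684-114896933, plus strand: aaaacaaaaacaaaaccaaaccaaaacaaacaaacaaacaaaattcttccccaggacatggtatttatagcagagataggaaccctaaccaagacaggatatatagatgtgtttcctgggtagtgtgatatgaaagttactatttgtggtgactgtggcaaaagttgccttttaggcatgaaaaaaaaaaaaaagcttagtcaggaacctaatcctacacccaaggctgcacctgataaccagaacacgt
Ifi35, chr11:101448162-101448411, plus strand: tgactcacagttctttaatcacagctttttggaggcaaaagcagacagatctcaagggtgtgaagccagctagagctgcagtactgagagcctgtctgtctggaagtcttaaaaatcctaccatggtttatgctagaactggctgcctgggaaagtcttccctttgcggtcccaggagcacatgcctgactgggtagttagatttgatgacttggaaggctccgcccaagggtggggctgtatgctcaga

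An ISRE core was found in 7 members, Ifit1, Ifit3, Isg15, Rsad2, Gbp2, Gbp3 and Bst2, and in 2.98% of all 32851 promoters of this length. In Isg15 3 matches overlapped within bases -78 to -57 from the start, in Bst2 2 overlapped within -130 to -115, and Gbp2 had 1 at -59 to -50. The GAS core occurred in 7.02% of all promoters and among the members in Bst2 alone, at -136 to -128, where it overlaps the first ISRE core. A match is a description of the sequence and does not show that a factor binds there.

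Cu-Cys treatment was followed by lower levels of 4 of the 7 members tested, Oasl2, Gbp2, Isg15 and Ifit3, and by a rise of none. Of all 11949 genes tested in Cu-Cys against Ctrl, 22.4% were lower and 22.6% higher, 45.0% in all, at an adjusted p of at most 0.05, which is the call used throughout. The 4 members lower were also those whose 3 Cu-Cys libraries all lay below all Ctrl libraries, as did 29.9% of all genes tested, while 31.4% lay wholly above and no member did. Oasl2, a relative of the 2′-5′-oligoadenylate synthetases, had 81, 86 and 69 counts in Ctrl and 28, 26 and 29 counts in Cu-Cys libraries. The groups were well apart, with 3.41 ± 0.366 CPM in Ctrl and 1.27 ± 0.07 CPM in Cu-Cys (SD, n = 3 each). Oasl2 was 2.68-fold lower, a log2 fold change of -1.42 ± 0.18 (SE) with an adjusted p of 1.7e-05 by edgeR. Gbp2, an interferon-induced GTPase that acts on the membranes around intracellular pathogens, had 116, 111 and 102 counts in Ctrl and 37, 43 and 43 in Cu-Cys libraries. It also did not overlap, and its log2 fold change was -1.34 ± 0.16 (SE), with an adjusted p of 9.66e-06 by edgeR. Both passed the study's stricter threshold, a fold change of at least 2 with an adjusted p of at most 0.001, which 1.47% of all genes tested passed downwards, 0.167% upwards and 1.64% in either direction.

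Isg15 encodes a ubiquitin-like protein that is both secreted and attached to other proteins. It had 28, 29 and 30 counts in Ctrl and 13, 10 and 16 counts in Cu-Cys libraries. No library overlapped, and the log2 fold change was -1.07 ± 0.33 (SE), with an adjusted p of 0.0175 by edgeR. Ifit3, whose human counterpart binds and stabilises IFIT1, had 25, 27 and 30 counts in Ctrl and 17, 13 and 14 in Cu-Cys libraries. These groups were also separate, with a log2 fold change of -0.81 ± 0.25 (SE) and an adjusted p of 0.0174 by edgeR. Of the 50-base stretches in Ifit3 transcripts, 51.2% also occur in its copy Ifit3b, which had at most 2 counts in any library, so reads of the pair may have been divided between them by the estimation. The calls on Isg15 and Ifit3 were lost without Ctrl replicate 3, with adjusted p of 0.0536 and 0.0675, and without Cu-Cys replicate 2, with 0.0788 and 0.0661 by edgeR. That of Ifit3 was also lost without Cu-Cys replicate 3, at 0.0595 by edgeR. DESeq2's Wald test ended both calls, with adjusted p of 0.0632 for Isg15 and 0.093 for Ifit3.

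Gbp3, Ifi35 and Bst2 did not pass in Cu-Cys against Ctrl. Gbp3, a second guanylate-binding GTPase, had 13, 22 and 10 counts in Ctrl and 10, 3 and 12 in Cu-Cys libraries. Its groups overlapped, and the 95% interval of its log2 fold change ran from -1.68 to 0.16. Ifi35, which encodes a partner of the interferon-induced protein NMI, had 221, 244 and 209 counts in Ctrl and 182, 185 and 207 in Cu-Cys libraries. Its interval ran from -0.43 to 0.13, and its normalised levels overlapped. Bst2 had 698, 744 and 698 counts in Ctrl and 619, 788 and 779 in Cu-Cys libraries, an overlapping set whose interval ran from -0.10 to 0.32. The median log2 fold change of the 7 members was -0.81, beside 0.00668 for all genes tested.

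Cadict-treated cells differed from Ctrl cells in both directions, with Oasl2 and Gbp2 lower and Ifi35 and Bst2 higher relative to the typical gene. The background was broad, since 47.1% of all genes tested were lower and 40.6% higher in Cadict against Ctrl, 87.7% in all, and 4 of 7 members called is not above it. The groups did not overlap for 2 members lower and 2 higher, beside 47.3% and 40.3% of all genes tested. Oasl2 had 81, 86 and 69 counts in Ctrl and 6, 3 and 3 counts in Cadict libraries. It was 9.82-fold lower, the largest change among the members tested, with a log2 fold change of -3.30 ± 0.28 (SE) and an adjusted p of 1.82e-08 by edgeR. With fewer than 10 counts in each Cadict library, it entered the test through the other groups, as did Gbp3 with 6, 4 and 3 counts. Gbp2 had 9, 11 and 18 counts in Cadict libraries, all far below the 102 to 116 of Ctrl libraries. Its log2 fold change was -2.13 ± 0.21 (SE), with an adjusted p of 9.01e-08 by edgeR. Oasl2 and Gbp2 passed the study's threshold, which 27.1% of all genes tested passed downwards, 20.7% upwards and 47.8% in either direction.

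Bst2 had nearly the same counts in both groups, 698, 744 and 698 in Ctrl and 690, 796 and 630 in Cadict libraries. After TMM scaling these became 30.9 ± 1.1 and 60.3 ± 8.36 CPM (SD, n = 3 each), without overlap. Bst2 was thus 1.95-fold higher relative to the typical gene, with a log2 fold change of 0.96 ± 0.10 (SE) and an adjusted p of 1.55e-07 by edgeR, whereas with library totals the change was 0.01 and on log2(TPM + 1) it was -0.38. Ifi35 had 221, 244 and 209 counts in Ctrl and 186, 221 and 143 in Cadict libraries, which overlapped as counts and separated to 9.74 ± 0.743 and 15.7 ± 3.63 CPM after scaling (SD, n = 3 each). Its log2 fold change was 0.68 ± 0.13 (SE) with an adjusted p of 0.000175 by edgeR, but -0.27 with library totals and -0.61 on log2(TPM + 1). The rise of Bst2 and Ifi35 therefore holds against the typical gene and not against the library total. The fall of Oasl2 and Gbp2 kept its direction under each scaling.

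Isg15, Ifit3 and Gbp3 did not pass in Cadict against Ctrl. Isg15 had 5, 17 and 5 counts in Cadict libraries, so that after scaling replicate 2 stood above the Ctrl libraries, with 1.482 CPM, and the others well below them, at 0.4249 and 0.4198 CPM. The 95% interval of its log2 fold change ran from -1.51 to 0.10, with an adjusted p of 0.0894 by edgeR, and without Cadict replicate 2 the change was -1.56 with an adjusted p of 0.00135. Ifit3 had 17, 10 and 11 counts in Cadict libraries, 1.08 ± 0.317 CPM against 1.19 ± 0.114 CPM in Ctrl (SD, n = 3 each). The groups overlapped and the interval ran from -0.71 to 0.44. For Gbp3 it ran from -1.92 to 0.31. With library totals, Isg15, Ifit3 and Gbp3 passed as lower, at -1.65, -1.08 and -1.74 on the log2 scale, and in all 5 members were lower and 0 higher, beside 73.1% of all genes tested lower and 18.1% higher under that scaling. The median log2 fold change of the 7 members was -0.71, beside -0.125 for all genes tested.

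**Figure D2:**
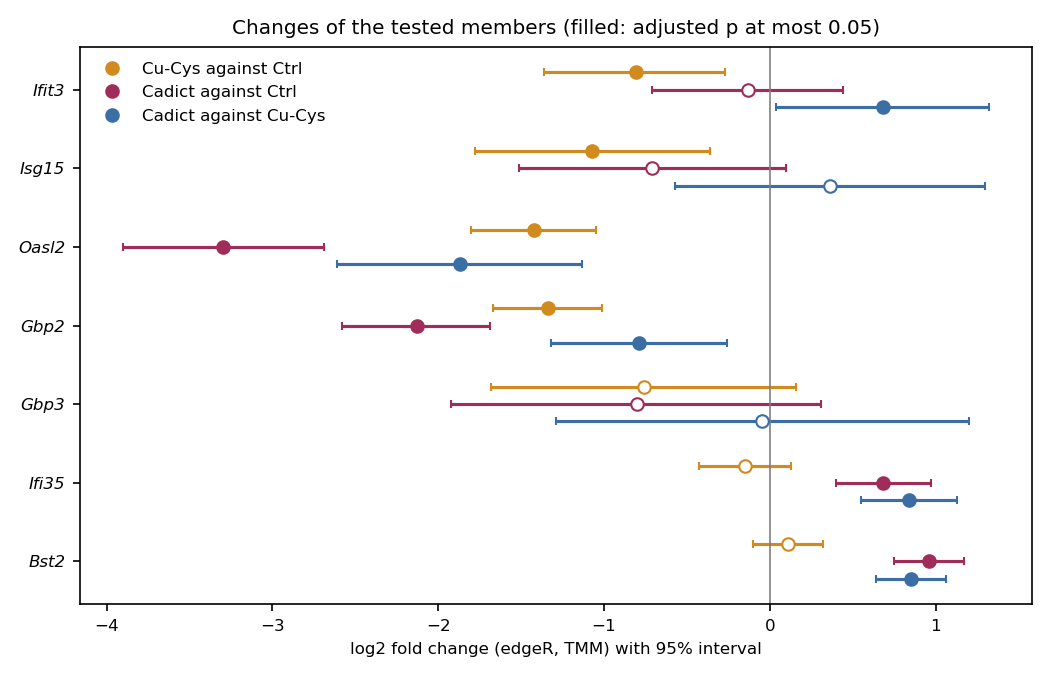
Log2 fold changes (x axis) with 95% intervals of the 7 members tested in each comparison, from edgeR with TMM scaling. Filled points passed an adjusted p of 0.05. Oasl2 and Gbp2 lie left of 0 in all 3 comparisons, and Ifi35 and Bst2 lie right of 0 in both comparisons of Cadict.

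Cadict against Cu-Cys, which shares its libraries with the comparisons above, had Oasl2 and Gbp2 lower and Bst2, Ifi35 and Ifit3 higher at the call used here. In that comparison 45.6% of all genes tested were lower and 40.3% higher, 85.9% in all, so 5 of 7 members called is not above the background. The groups of these 5 members, 2 lower and 3 higher, did not overlap, beside 45.4% and 39.6% of all genes tested. Oasl2 was 3.66-fold lower, with a log2 fold change of -1.87 ± 0.35 (SE) and an adjusted p of 0.000113 by edgeR, and it was the one member past the study's threshold, which 23.6% of all genes tested passed downwards, 18.6% upwards and 42.2% in either direction. Gbp2 was 1.73-fold lower, with an adjusted p of 0.00762 by edgeR, and no Cadict library of it reached the lowest Cu-Cys library. Bst2 and Ifi35 were higher by 0.85 ± 0.10 and 0.84 ± 0.14 on the log2 scale (SE), with adjusted p of 6.97e-07 and 3.13e-05 by edgeR, but by library totals the changes were -0.03 and -0.05. Ifit3 was higher by 0.68 ± 0.30 (SE) with an adjusted p of 0.0467 by edgeR, a call lost in 6 of the 9 fits that left out a library, with the adjusted p at 0.312 without Cadict replicate 1, and turned to -0.20 by library totals. With the replicate number as a block its adjusted p was 0.0683 by edgeR. Isg15, at 0.36 ± 0.44 (SE) on the log2 scale, did not pass, nor did Gbp3, whose 95% interval ran from -1.29 to 1.20. The median log2 fold change of the 7 members was 0.36, beside -0.0989 for all genes tested.

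Ratios within a library do not depend on its scaling, and Bst2, chosen for this after its values were seen, served as the reference. Per 1000 counts of Bst2, Oasl2 had 110 ± 9.8 counts in Ctrl, 38.5 ± 6.22 in Cu-Cys and 5.74 ± 2.61 in Cadict libraries (SD, n = 3 each). Gbp2 had 154 ± 10.8, 56.5 ± 2.84 and 18.5 ± 8.75 in the same order. Both stepped down against Bst2 in each library, without overlap between any groups. Isg15 had 40.7 ± 2.06, 18.1 ± 4.67 and 12.2 ± 7.95 counts per 1000 of Bst2, where the treated groups overlapped with each other and lay below Ctrl. Ifit3 showed the same order, with 38.4 ± 4.01, 20.6 ± 5.95 and 18.2 ± 6.07. Ifi35 was nearest to a fixed ratio, with 315 ± 14.4, 265 ± 29.6 and 258 ± 27.2. These ratios show unequal change and not which gene of a pair moved.

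**Figure D3:**
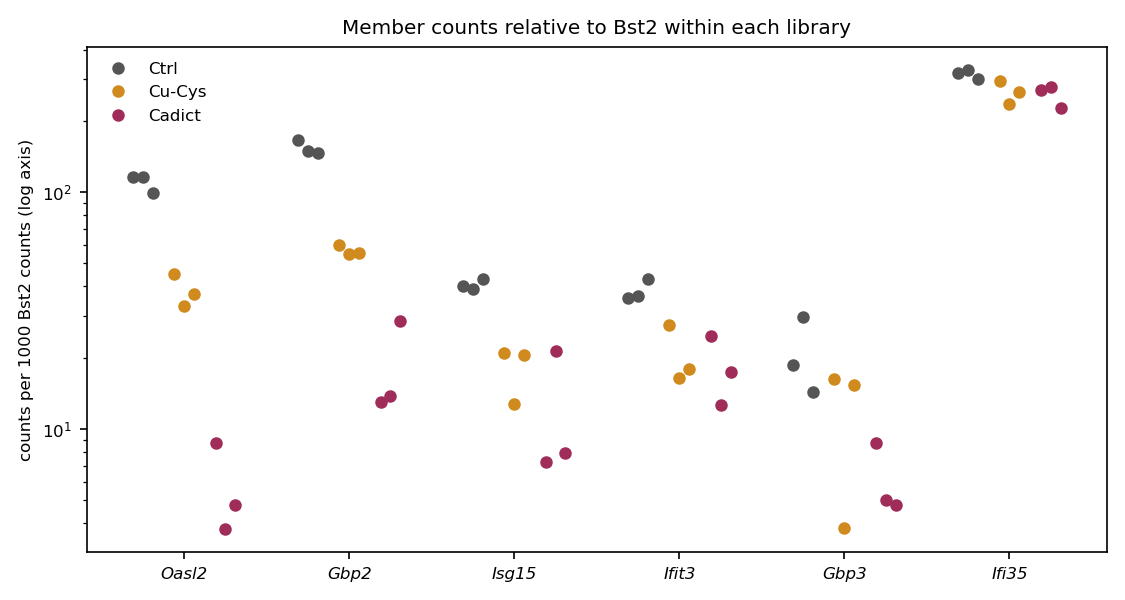
Counts of 6 members per 1000 Bst2 counts within each library, on a log axis, with 1 point per library. Oasl2 and Gbp2 fall from Ctrl to Cu-Cys to Cadict, Isg15 and Ifit3 are lower in both treated groups than in Ctrl, and Ifi35 stays between 227 and 328.

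As a description over the 9 libraries, Oasl2 and Gbp2 varied together on the log2 CPM scale (Pearson r = 0.90), Ifi35 and Bst2 did as well (r = 0.93), and Oasl2 ran against Bst2 (r = -0.88). The points share the 3 groups, so the values mostly restate the group levels. Among 8550 genes of at least 10 CPM on average, the gene most like Bst2 was Atp5j2, an ATP synthase subunit (r = 0.996), and the one most like Ifi35 was Crip1, a LIM domain protein (r = 0.983).

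The other genes of the interferon pathway were mostly lower in both treated groups. Of 118 genes listed, among them family relatives such as the atlastins Atl1, Atl2 and Atl3 and the ligase relative Herc4, 98 were in the table and 83 were tested. With Cu-Cys 59 were lower, 4 higher and 20 did not pass, and with Cadict 62 were lower, 13 higher and 8 did not pass. Of all genes tested 22.4% and 47.1% were lower and 22.6% and 40.6% higher, which is also the background for each list below. Both comparisons share the Ctrl libraries. At the study's threshold 14 were lower and 0 higher with Cu-Cys, and 51 lower and 6 higher with Cadict. Of all genes tested, 1.47% passed it downwards and 0.167% upwards with Cu-Cys, and 27.1% and 20.7% with Cadict. The median log2 fold change was -0.50 with Cu-Cys and -1.50 with Cadict. By library totals the counts with Cadict became 75 lower and 2 higher, where 73.1% of all genes tested were lower and 18.1% higher. Genes low in both treated groups, such as Gbp6, Tgtp2 and Rtp4, could enter the test through Ctrl alone, where they are highest. Their fall is therefore no separate support. Restricting to at least 10 counts in every library left 63 tested. Of these, 42 were lower and 2 higher with Cu-Cys, and 44 lower and 13 higher with Cadict. Of all genes tested under that filter, 24.5% and 47.2% were lower and 22.6% and 41.2% higher.

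Among the ligands, Ifne had 1 count in a single Ctrl library and Ifna13 1 count in a single Cadict library, and the other 8 ligands on the list were not in the table. For the receptor chain Ifnar1 the log2 fold change was -0.37 with Cu-Cys and -2.29 with Cadict, both passing, while Ifnar2 did not pass with either, at -0.05 and 0.12. Stat2, a subunit of ISGF3, had 306, 317 and 276 counts in Ctrl, 268, 242 and 226 in Cu-Cys and 22, 14 and 13 in Cadict libraries. Its Cadict libraries lay far below the others, while Ctrl and Cu-Cys overlapped after scaling. It was at -0.21 with Cu-Cys, which did not pass with an adjusted p of 0.0884, and fell by 3.22 on the log2 scale with Cadict. Irf9 fell by 0.47 and 1.41 on the log2 scale. Irf7, a factor that sustains interferon production, had 26, 31 and 33 counts in Ctrl, 8, 9 and 5 in Cu-Cys and 2, 1 and 2 in Cadict libraries, at -1.93 and -3.14 on the log2 scale. It entered the test through the Ctrl group, where it is highest, so its passing is no separate support. Of the 8 receptor and ISGF3 genes tested, 6 were lower with Cu-Cys and 7 with Cadict, beside 22.4% and 47.1% of all genes tested.

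Of 5 genes tested on the list for attaching ISG15 to proteins, 3 were lower and 2 did not pass with Cu-Cys, and 4 were lower and 1 higher with Cadict. The shares of all genes tested that were lower were 22.4% and 47.1%. Uba7, the activating enzyme, had 98, 72 and 73 counts in Ctrl, 32, 27 and 32 in Cu-Cys and 1, 4 and 2 in Cadict libraries. Its groups did not overlap, with log2 fold changes of -1.33 and -4.10 and adjusted p of 7.28e-05 and 2.2e-08 by edgeR. Ube2l6, the conjugating enzyme, fell by 0.75 and 1.18, and Herc6, the mouse ligase, by 0.50 and 0.88 on the log2 scale. The ligase Trim25 was at -0.05 with Cu-Cys, which did not pass, and fell by 1.32 with Cadict. Herc4, a relative of Herc6, was at 0.07 with Cu-Cys, which did not pass, and was higher with Cadict at 1.05 on the TMM scale. The mean level of Herc4 was 33.1 TPM in Ctrl and 28.5 TPM in Cadict libraries. Nmi, the partner of Ifi35, fell by 0.23 with Cu-Cys and 0.64 with Cadict, where Ifi35 itself was higher relative to the typical gene.

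Relatives of the members by family did not all follow them. The list of GBP and IRG GTPases also holds the atlastins Atl1, Atl2 and Atl3. Of its genes, 11 of 12 tested were lower with each treatment, beside 22.4% and 47.1% of all genes tested. Some, such as Gbp6 and Tgtp2, could enter the test through Ctrl alone, where they are highest, so their fall is no separate support. Among the 11 lower, Irgm1 was at -0.28 and -2.04, Ifi47 at -0.80 and -1.32 and Atl3 at -0.55 and -1.77. The exception was Atl2, at 0.07 with Cu-Cys, which did not pass, and higher with Cadict at 1.40 on the TMM scale. Every GBP and IRG gene tested outside the members was thus lower with each treatment, while the member Gbp3 did not pass with either. In the OAS and RNase L list all 5 tested were lower with Cu-Cys and 3 with Cadict, where Oas1a was at -0.08 and did not pass. Ifit2, with 1536 to 1586 counts in Ctrl libraries, was far more abundant than Ifit1 and Ifit3 and fell with Cadict, to 212 to 277 counts, by 1.64 on the log2 scale. With Cu-Cys it was at -0.07, between 1351 and 1480 counts, and did not pass. Among 28 other antiviral effectors 23 were lower and 0 higher with Cu-Cys, and 19 were lower and 6 higher with Cadict. Genes of the membrane proteins Ifitm2 and Ifitm3 and the mitochondrial protein Ifi27 were among those higher with Cadict, at 0.65, 0.26 and 0.87 on the TMM scale. Their mean TPM was instead lower with Cadict, at 469, 219 and 57.6 against 775, 470 and 80.5 in Ctrl.

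**Figure D4:**
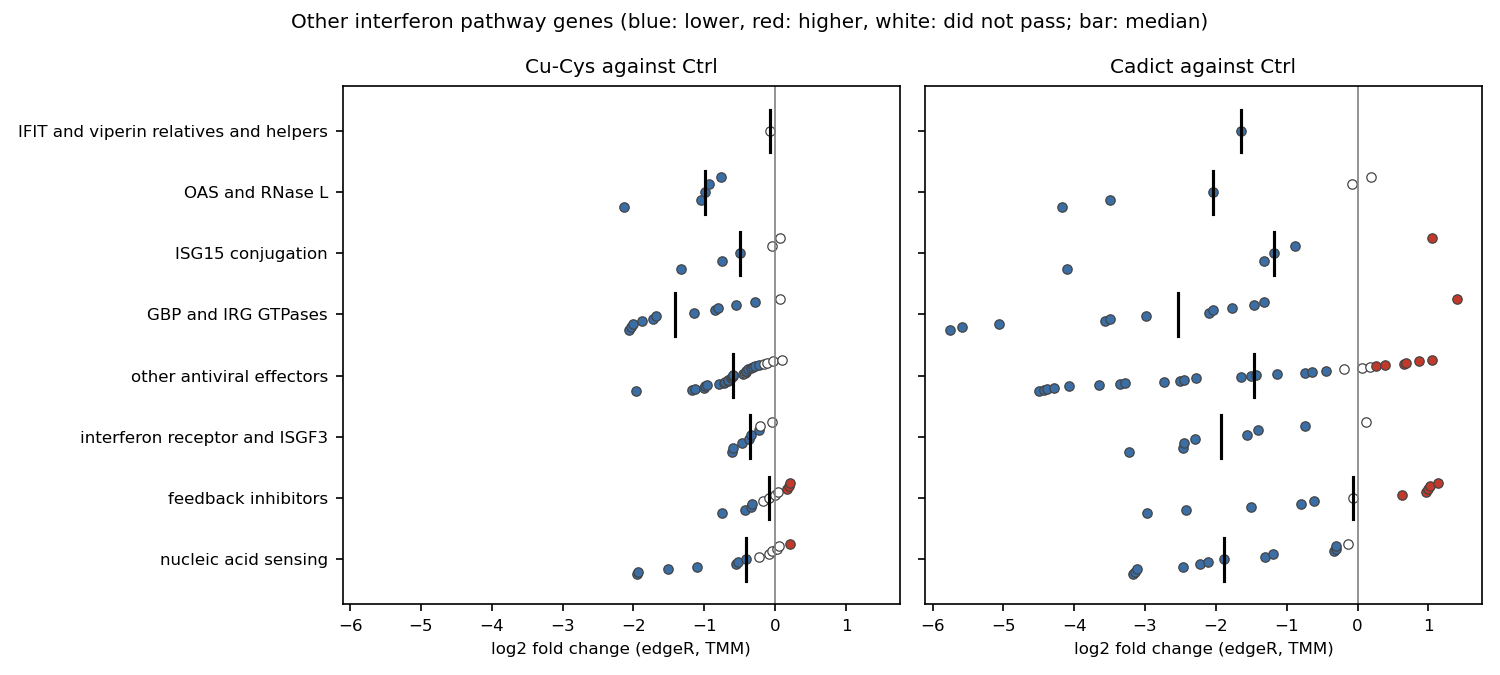
Log2 fold changes of the tested interferon pathway genes outside the 10 members by list, with Cu-Cys at the left and Cadict at the right, both against the same Ctrl libraries. Each point is a gene, blue lower, red higher and white not passing, and the bar is the median of the list, which lies further below 0 with Cadict in the GBP and IRG, OAS, ISG15 conjugation, receptor and sensing lists.

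On the list for sensing of nucleic acid, which also holds adaptors, kinases and transcription factors, 7 of 13 tested were lower and 1 higher with Cu-Cys. With Cadict 12 were lower. The shares of all genes tested that were lower were 22.4% and 47.1%. The adaptor Mavs was at -0.04 with Cu-Cys, which did not pass, and fell by 1.88 on the log2 scale with Cadict. Sting1, the receptor for the product of cGAS, was at -0.08, which did not pass, and -1.30, and the kinase Tbk1 at 0.21 and -1.20. Of 11 feedback inhibitors tested 4 were lower and 3 higher with Cu-Cys, and 5 were lower and 5 higher with Cadict, near the 47.1% and 40.6% of all genes tested. With Cadict the phosphatases Ptpn1 and Ptpn11 were higher at 1.02 and 1.13 on the TMM scale. Their mean TPM was 24.2 and 61.8 with Cadict, against 29.5 and 69.2 in Ctrl. Socs1 and Pias3, named here after their values were seen, were lower with Cadict at -2.97 and -2.42.

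**Figure D5:**
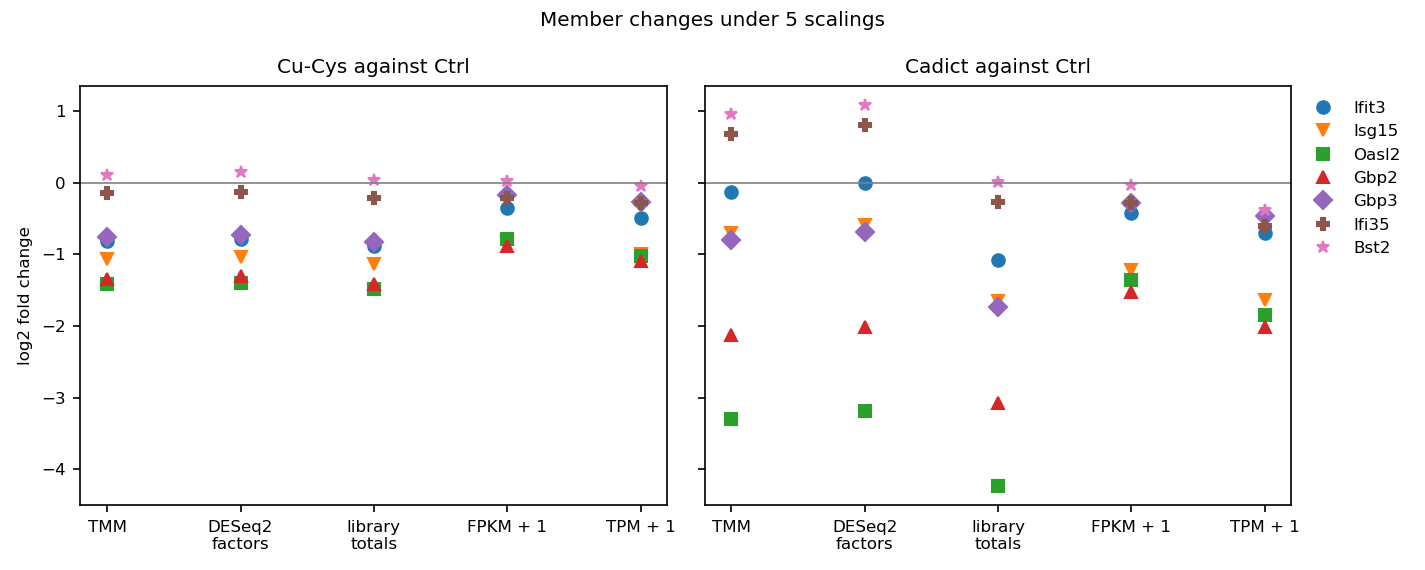
Log2 fold changes of the 7 members tested (y axis) under 5 scalings of the libraries, with Cu-Cys at the left and Cadict at the right, both against Ctrl. With Cadict, Bst2 and Ifi35 lie above 0 with TMM and DESeq2 factors and at or below 0.01 with the others, and Oasl2 and Gbp2 lie below 0 under each.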

How the data were processed

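The authors deposited a single table of 16509 genes. For each library it gives an expected count (estimated reads per gene, not normalized), an FPKM and a TPM, and a signal that the authors made from the counts by dividing by a size factor per library. The submitters' processing notes name HISAT2 2.1.0, Bowtie2 2.3.4.3, RSEM 1.3.1 and the builds GRCm39 and GRCh38.p13, without roles. The labels name a column kit and DNA nanoballs, and the methods name TRIzol and an Illumina instrument. Columns marked CC were taken as Cu-Cys by its initials and CCGE as Cadict by its components. Deposited group averages were not used.

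Rounded expected counts entered edgeR 4.0.16 (R 4.3.3): filterByExpr by group, TMM, and 1 quasi-likelihood model of the 3 groups, with Benjamini-Hochberg adjustment over 11949 genes. The SE is the log2 fold change divided by the square root of F. A gene passed where its adjusted p reached 0.05 or lower. The p-values measure the spread between these libraries, which the labels do not tie to separate cultures, and floors of 3 counts cover counting error only. The procedure was tested on simulated data in which a small part of the genes changed in the Cadict group. That simulation held no shift in library composition, so it does not cover the scaling of the Cadict libraries.

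Named genes were the members, the 4 other genes of highest mean FPKM in each pathway list, the ligands, direct partners of the members and the gene most like each member of at least 10 CPM. The values of 1 gene so selected are not reported here, but its list is counted with it. Marker genes served only to check the line. Members and lists were chosen with earlier results of these data known. Alternatives were DESeq2 1.42.0 factors and Wald test, library totals, other count filters, only the groups compared, limma 3.58.1 on log2 of TPM or FPKM plus 1 (TPM also plus 0.1), the replicate block and leaving out each library. Promoters came from RefSeq (GRCm38.p6), and shared 50-base stretches from GENCODE M21 transcripts.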

Additional observations from a re-analysis of the deposited data

How the results depend on the processing

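Of the 7 members tested, Oasl2 and Gbp2 kept their direction and call under each alternative to the 0.05 call that tested them. The filter of 10 counts in every library removed both. Members changed in Cadict against Ctrl numbered 4, and 2 at the study's threshold and 2 of 3 tested with at least 10 counts in every library. By limma on log2 TPM 7 members were lower with either pseudocount. Of all genes tested, 79.6% were lower with TPM + 1 and 79.5% with TPM + 0.1. Members changed in Cu-Cys against Ctrl numbered 4, and 2 at the study's threshold. They numbered 1 with at least 10 counts in every library and 2 by DESeq2's Wald test. Those in Cadict against Cu-Cys numbered 5, and 1 at the study's threshold and 2 each by library totals, with at least 10 counts in every library and by limma on log2(FPKM + 1). Leaving out 1 library gave 4 to 5, 2 to 4 and 4 to 5 members in the same order. Pathway genes changed numbered 63 with Cu-Cys and 14 at the study's threshold, and 69 and 43 in Cadict against Cu-Cys, with ranges of 56 to 67 and 65 to 69 on leaving out a library and 73 to 75 in Cadict against Ctrl.

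Directions that turned were those of log2 fold changes near 0 or measured in Cadict libraries, and they are given for library totals, TPM + 1, TPM + 0.1 and FPKM + 1 in turn. In Cadict against Cu-Cys, Ifit3 became -0.20, -0.21, -0.48 and -0.08, Isg15 -0.51, -0.64, -0.99 and -0.38, Ifi35 -0.05, -0.33, -0.35 and -0.07, and Bst2 -0.03, -0.33, -0.33 and -0.06. In Cadict against Ctrl, Ifi35 became -0.27, -0.61, -0.65 and -0.28, and Bst2 -0.38 with either TPM pseudocount and -0.04 on FPKM. Bst2 in Cu-Cys against Ctrl became -0.05 with either TPM pseudocount. Without Cadict replicate 2, Isg15 in Cadict against Cu-Cys was -0.49, and over all libraries left out it ran to 0.66. Gbp3 in that comparison was 0.05 with DESeq2 factors, 0.02 by the Wald test, and 0.11, 0.30 and 0.17 without Cu-Cys replicates 1 and 3 and Cadict replicate 3, with -0.45 as the lowest value on leaving out a library. These scalings place the median of all genes in Cadict against Ctrl at -1.08, -1.13, -1.39 and -0.78, against -0.125 with TMM. The cause of the turns was not tested.

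Same-numbered replicates did not deviate together (correlations of -0.192 to 0.152 over 8551 genes), so the numbers were not taken as pairs. With the replicate number as a block, 4, 4 and 4 members and 75, 61 and 66 pathway genes changed in the order of comparisons used above.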
